A study of Rattus norvegicus with 24 samples.

Results

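The genes described here make cholesterol, sense it, move it inside the cell, store it and export it. They are 32 genes chosen by symbol from a list, out of 30043 genes in the table. The choice was made with earlier results of these data known, so shares of members called only describe this list. Of the 32 genes, 31 had enough reads to be tested among 13322 tested genes. The remaining member, Tm7sf2, was too low over the 24 libraries and is described apart. By role, 7 members belong to the mevalonate pathway, 11 to the steps from squalene to cholesterol, 5 to sterol sensing, 4 to movement inside the cell and storage, and 5 to efflux and its regulators. None of the 32 is a lipoprotein receptor, and the member that bears on uptake is Mylip, a ubiquitin ligase that marks lipoprotein receptors for degradation.

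RNA was sequenced from pieces of lung of 24 male Fischer 344 rats, 6 per group, bought at 3 months of age and kept for 29 weeks in a study that crossed 2 inhaled exposures. The air group breathed air throughout. The silica group breathed crystalline silica (Min-U-Sil5) at 15 mg/m3 for 6 hours a day on 5 days of week 3, and air before and after. The smoke group breathed cigarette smoke for 3 hours on Tuesdays and Fridays, at 40 mg/m3 in week 1 and at 80 mg/m3 later, with air in week 3. The combined group received the silica of week 3 and the smoke of the other weeks, with a starting smoke level of 45 mg/m3 rather than 40. All exposures were whole-body, and each library is a separate animal. Because the tissue was bulk lung, fewer cells of a type and less RNA per cell cannot be told apart in any value below.

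Cholesterol is built from acetyl-CoA through mevalonate, squalene and lanosterol. When membranes of the endoplasmic reticulum run low in sterol, SCAP escorts the SREBP transcription factors to the Golgi, where they are cut free and then switch on most genes of the synthesis pathway, while INSIG proteins hold them back. Cells loaded with cholesterol use the opposite arm, in which oxysterols activate the nuclear receptors LXRα and LXRβ and with them the efflux pumps ABCA1 and ABCG1. In the lung, alveolar type 2 cells need cholesterol for surfactant, and alveolar macrophages take surfactant lipid up, pass its cholesterol through the lysosome, esterify it or pump it out.

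Values are CPM, counts scaled to a library's total after TMM, edgeR's correction for composition, and differences are on the log2 scale with their standard error. A gene passed the test where edgeR's quasi-likelihood test gave an adjusted p under 0.05 (Benjamini-Hochberg over all 13322 genes), and "rose" is used of such genes alone. Totals ran from 21629 counts in smoke 2 to 4687805 in air 6, with 280484 in silica 4 and at least 1084815 in the other libraries. Smoke 2 held 7 reads over all 32 members, and 44.1% of its counts were the haemoglobin genes Hbb and Hba1, so CPM ranges of the smoke group are given over the other 5 libraries, while the tests kept it. A pair of libraries went against their labels at Mmp12, a macrophage elastase: the library labelled silica 1 had 3.20 CPM against 57.4 to 75.8 in the other silica libraries, and the library labelled smoke 1 had 57.2 against 3.57 to 11.8 in smoke 3 to 6. Air 6 stood apart at the collagen gene Col1a1, with 461 CPM against 42.8 to 118 in the other air libraries. Results are therefore also given without silica 1, smoke 1 and smoke 2, and where it matters without air 6 too. The lung marker Sftpc, surfactant protein C, was at 4063 to 8514 CPM in every library except smoke 2.

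Promoter windows from RefSeq (assembly GRCr8, 250 bases before to 50 after the start of the gene) were available for 27 members, with 28 windows in all, and Sqle, Pmvk, Fdft1, Stard4 and Abcg1 had none. Windows were matched by gene symbol, and the gene identifiers of all 32 members were those of the RefSeq genes of the same symbol. No source used here gives the build the authors counted on. A set of 4 is printed because these members passed the test in the combined group and stand for different roles: Insig1 for sensing, Cyp51 and Fdps for synthesis, and Npc2 for lysosomal export. Sequences run 5′ to 3′ on the strand of the gene, and capitals mark matches of the motifs searched on both strands. Insig1 lies at chr4:8057720-8058019 (minus strand), Cyp51 at chr4:30991443-30991742 (plus), Fdps at chr2:176804767-176805066 (minus) and Npc2 at chr6:110149196-110149495 (minus).
Insig1: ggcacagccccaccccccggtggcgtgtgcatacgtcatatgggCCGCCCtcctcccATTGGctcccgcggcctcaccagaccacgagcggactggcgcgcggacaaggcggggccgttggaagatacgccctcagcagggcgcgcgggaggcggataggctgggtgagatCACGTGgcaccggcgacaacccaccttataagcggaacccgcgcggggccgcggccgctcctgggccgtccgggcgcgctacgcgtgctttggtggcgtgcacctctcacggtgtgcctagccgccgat
Cyp51: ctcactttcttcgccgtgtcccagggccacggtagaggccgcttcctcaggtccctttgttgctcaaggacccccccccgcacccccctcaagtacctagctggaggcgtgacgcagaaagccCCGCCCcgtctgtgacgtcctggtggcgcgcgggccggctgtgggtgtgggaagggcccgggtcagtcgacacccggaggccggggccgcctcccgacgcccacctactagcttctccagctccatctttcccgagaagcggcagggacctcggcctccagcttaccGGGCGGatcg
Fdps: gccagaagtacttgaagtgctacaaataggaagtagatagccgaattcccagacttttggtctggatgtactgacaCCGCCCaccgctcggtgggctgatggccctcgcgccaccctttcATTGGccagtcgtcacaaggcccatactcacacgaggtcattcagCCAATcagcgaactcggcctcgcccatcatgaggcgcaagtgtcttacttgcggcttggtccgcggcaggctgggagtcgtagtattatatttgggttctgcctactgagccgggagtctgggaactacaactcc
Npc2: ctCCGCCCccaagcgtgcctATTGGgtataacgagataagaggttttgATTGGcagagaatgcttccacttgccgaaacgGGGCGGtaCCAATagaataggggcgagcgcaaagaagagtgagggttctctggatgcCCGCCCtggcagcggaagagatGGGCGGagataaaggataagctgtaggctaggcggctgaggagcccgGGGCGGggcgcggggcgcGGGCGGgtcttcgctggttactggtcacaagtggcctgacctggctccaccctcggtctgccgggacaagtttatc

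The searched motifs were the sterol regulatory element core TCACNCCAC, the NF-Y box CCAAT, the GC box GGGCGG bound by SP1, the E-box CACGTG, and the LXR direct repeat, AGGTCA repeated after 4 bases of any kind. The NF-Y box was in the windows of 19 of 27 members, against 37.5% of all 33469 promoters and 36.9% of the 10481 promoters of tested genes. The GC box was in those of 22 of 27 members, against 33.1% of all promoters and 59.6% of those of tested genes. The E-box was in the windows of 4 members, Insig1, Abca1, Sc5d and Scap, against 6.42% of all promoters and 8.89% of those of tested genes. The core TCACNCCAC was in no member window and in 1.12% of all promoters, and the LXR repeat was in none and in 0.00598% of all promoters. These are matches of letters in short windows, and where there is no match that says only that the letters are not in the window. No match overlaps another in the 4 printed sequences, and the NF-Y boxes shown as ATTGG and the GC boxes shown as CCGCCC are on the opposite strand. Of the 11 members with a window that rose in the combined group, 8 held an NF-Y box, 10 a GC box and 3 an E-box.

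**Figure D1:**
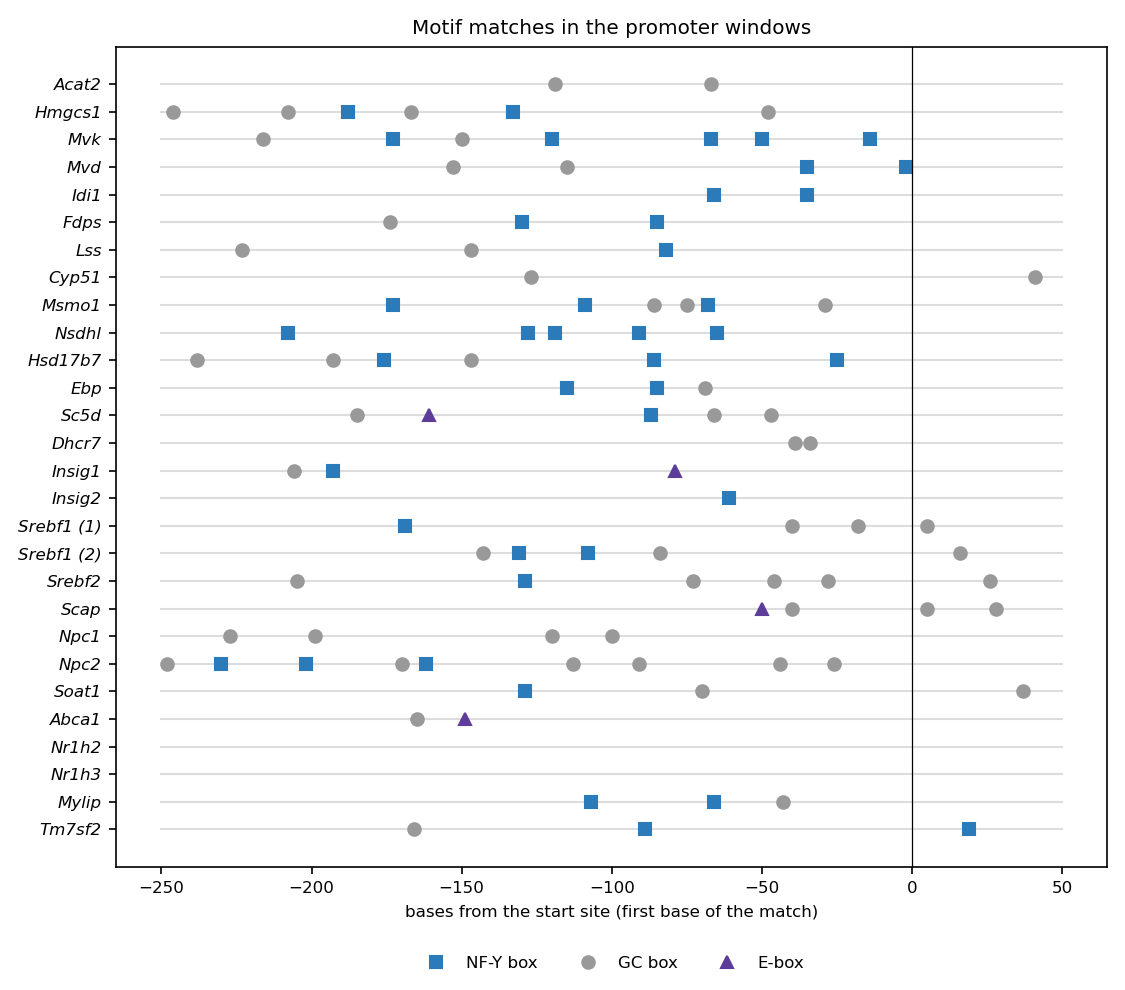
Positions of motif matches in the RefSeq promoter windows of the members, with the distance from the start of the gene in bases on the horizontal axis and 1 row per member window. The NF-Y box appears in windows of 19 members and the GC box in those of 22, while the E-box appears in 4.

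Against air, the lungs of rats that had received both exposures had higher RNA of genes from all 5 roles. In all, 14 of the 31 tested members rose and none fell, where 11.6% of all tested genes rose and 10.8% fell. The median log2 difference of the members was 0.34, and that of all genes was -0.01. The difference was above 0 for 27 of 31 members and for 48.6% of all genes. With smoke 2 left out of the ranges, 6 members had every combined library above every air library: Cyp51, Insig1, Npc1, Npc2, Soat1 and Abcg1. That held for 6.37% of all genes, and the reverse, which held for no member, for 4.93%. Without silica 1, smoke 1 and smoke 2, 14 of the 31 rose, against 12.1% of all genes, and without air 6 as well 17 of 31 rose, against 13.1%.

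**Figure D2:**
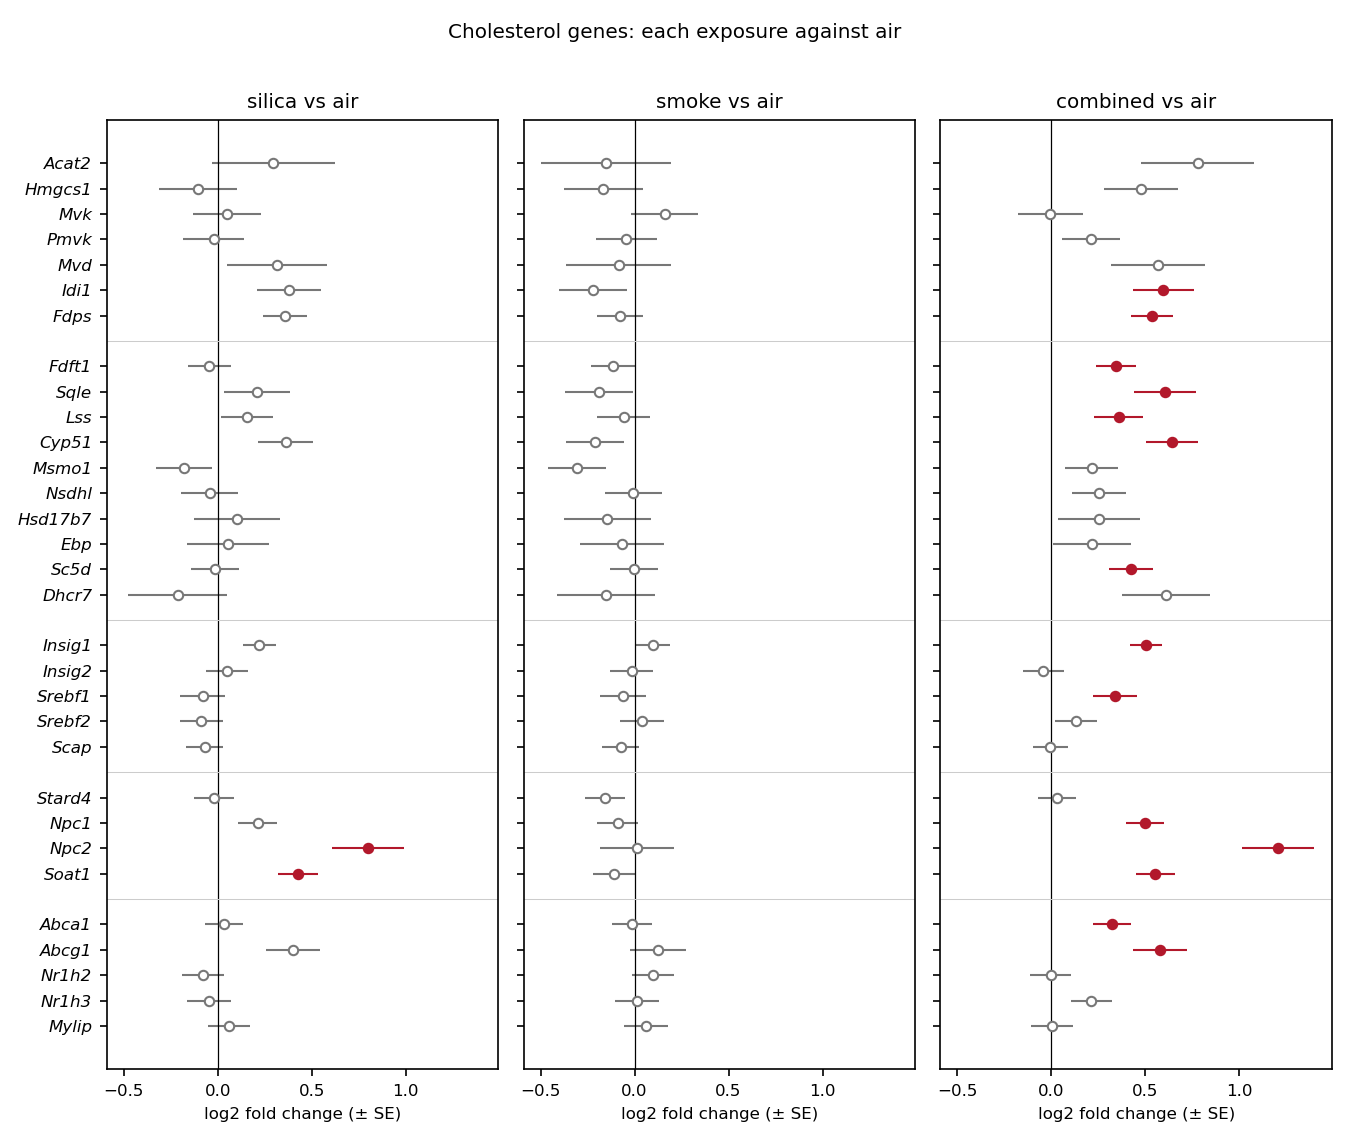
Log2 differences from air (horizontal axis, with bars of ± 1 standard error) for the 31 tested members after silica, smoke and both exposures, in order of role, with filled points for members that passed the test. The combined group shows filled points in all 5 roles, 14 in total, silica shows 2 and smoke none.

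In the mevalonate pathway, 2 of 7 members rose in the combined group over air, Idi1 and Fdps. Idi1, the isomerase that readies the isoprene unit for chain building, had a lowest, median and highest value of 21.6, 25.3 and 41.4 CPM in air, 21.9, 34.4 and 54.2 in silica, 20.4, 25.8 and 27.0 in smoke, and 36.2, 41.5 and 48.4 in the combined group. The combined libraries lay above all smoke libraries and above all air libraries but air 6. Idi1 rose by 0.59 ± 0.16 over air (adjusted p = 0.00838, edgeR) and by 0.81 ± 0.18 over smoke (adjusted p = 0.00374). Fdps, which makes farnesyl diphosphate, the branch point toward sterols and protein prenylation, had 66.9, 73.4 and 83.3 CPM in air, 59.8, 101.4 and 116 in silica, 55.0, 70.7 and 79.0 in smoke, and 80.7, 108 and 121 in the combined group. Its combined libraries lay above all smoke libraries, overlapped the top of the air range and shared most of the silica range. Fdps rose by 0.53 ± 0.11 over air (adjusted p = 0.00106) and by 0.61 ± 0.12 over smoke (adjusted p = 0.0019).

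Hmgcs1, the synthase that makes HMG-CoA, turned on a single library. It had 46.4, 56.3 and 149 CPM in air, 51.2, 71.7 and 82.5 in silica, 52.9, 69.0 and 69.3 in smoke, and 80.7, 104 and 113 in the combined group. Air 6 held the highest value of all libraries, and the next air library stood at 62.0, below every combined library. With all libraries Hmgcs1 differed from air by 0.48 ± 0.19 (adjusted p = 0.0766) in the combined group and did not pass, and it rose by 0.64 ± 0.21 over smoke (adjusted p = 0.0414). Without air 6 the difference from air was 0.90 ± 0.11 and passed, as it did against silica, at 0.59 ± 0.11 (adjusted p = 0.0039).

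Acat2, which joins acetyl-CoA units at the entry of the pathway, and Mvd, which removes carbon dioxide from mevalonate diphosphate, were low genes with wide errors. Acat2 had 2.103, 4.02 and 6.46 CPM in air and 4.75, 6.84 and 11.6 in the combined group, overlapping ranges, with a difference of 0.78 ± 0.30 (adjusted p = 0.0604). Mvd had 3.15, 5.09 and 6.13 CPM in air and 4.69, 6.92 and 10.5 in the combined group, and its difference of 0.57 ± 0.25 had an adjusted p of 0.101. Both were at 0 in silica 4, where 3 counts stand at 10.7 CPM, so that a value of this size was not detectable there. The kinases that phosphorylate mevalonate, Mvk and Pmvk, differed from air in the combined group by -0.01 ± 0.17 and 0.21 ± 0.15, and neither passed in any comparison.

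Among the steps from squalene to cholesterol, 5 of 10 tested members rose over air and 7 of 10 over smoke. Cyp51, the cytochrome P450 that strips a methyl group from lanosterol, had 46.3, 65.5 and 72.9 CPM in air, 55.3, 93.7 and 115 in silica, 37.8, 56.6 and 72.7 in smoke, and 86.2, 100.8 and 112 in the combined group. No combined library overlapped an air or smoke library, and the silica libraries spanned both ranges. Cyp51 rose by 0.64 ± 0.14 over air (adjusted p = 0.00132) and by 0.85 ± 0.15 over smoke (adjusted p = 7.70e-04). Sqle, squalene epoxidase, a rate-limiting step of the late pathway, had 22.6, 26.6 and 39.5 CPM in air, 21.01, 34.7 and 57.4 in silica, 20.4, 23.2 and 30.6 in smoke, and 20.7, 44.6 and 52.1 in the combined group. Apart from combined 4, the lowest, every combined library lay above all air and smoke libraries. Sqle rose by 0.60 ± 0.16 over air (adjusted p = 0.00795) and by 0.79 ± 0.18 over smoke (adjusted p = 0.00462).

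Fdft1, squalene synthase, the first enzyme committed to sterols, had 46.4, 54.6 and 77.0 CPM in air, 49.8, 55.1 and 82.5 in silica, 47.7, 53.5 and 62.7 in smoke, and 64.8, 72.5 and 82.6 in the combined group. The combined libraries lay above all smoke libraries, and the air and silica ranges reached into theirs through air 6 and silica 4 alone. Fdft1 rose by 0.34 ± 0.11 over air (adjusted p = 0.0208) and by 0.46 ± 0.12 over smoke (adjusted p = 0.00954). The call over air was lost without air 2 or combined 3 (adjusted p up to 0.0558). Without air 6 its difference from air was 0.47 ± 0.09 and from silica 0.40 ± 0.09, and the latter then passed (adjusted p = 0.0421).

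Sc5d, a sterol desaturase near the end of the pathway, had 22.6, 28.3 and 36.9 CPM in air, 25.1, 27.6 and 34.0 in silica, 25.0, 29.8 and 33.7 in smoke, and 33.1, 40.0 and 41.4 in the combined group. Its combined median lay above every library of the other groups, although the ranges met. Sc5d rose by 0.42 ± 0.12 over air (adjusted p = 0.0103) and by 0.43 ± 0.13 over smoke (adjusted p = 0.0259), the latter not holding without smoke 4, smoke 5 or combined 1 (adjusted p up to 0.0828). Lss, which closes squalene epoxide into lanosterol, had 23.4, 28.3 and 35.2 CPM in air, 25.8, 32.9 and 39.5 in silica, 19.9, 27.7 and 33.7 in smoke, and 31.8, 34.4 and 48.6 in the combined group, with overlap throughout. Lss rose by 0.36 ± 0.13 over air (adjusted p = 0.0457) and by 0.42 ± 0.14 over smoke (adjusted p = 0.0463), both near the threshold. The call over air was lost when any of air 1, 4, 5 and 6, silica 2, smoke 4 and combined 1, 3 and 6 was left out, with adjusted p up to 0.161. The call over smoke was lost without any of air 1, 3 and 4, silica 2 and 6, smoke 3, 4, 5 and 6 and combined 1, 2, 3 and 6, with adjusted p up to 0.137.

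Msmo1 and Dhcr7 passed the test in the comparison of the combined group with smoke and in no other. Msmo1, a methylsterol oxidase downstream of Cyp51, had 27.7, 32.4 and 51.8 CPM in air, 21.01, 33.1 and 35.8 in silica, 23.3, 26.5 and 36.7 in smoke, and 38.5, 39.4 and 48.4 in the combined group. All combined libraries lay above all silica and smoke libraries, and above all air libraries but air 6. It rose by 0.52 ± 0.16 over smoke (adjusted p = 0.0255), a call lost without smoke 3, smoke 5 or combined 3 (adjusted p up to 0.0873), and its difference of 0.21 ± 0.14 from air did not pass (adjusted p = 0.293). Without air 6 that difference was 0.40 ± 0.12 and passed (adjusted p = 0.0196). Dhcr7, a reductase that yields cholesterol itself, had 5.78, 8.68 and 15.4 CPM in air, 0, 7.58 and 12.5 in silica, 7.14, 8.51 and 11.4 in smoke, and 10.4, 15.5 and 19.4 in the combined group, so that all ranges met. It rose by 0.76 ± 0.26 over smoke (adjusted p = 0.0494) and did not pass over air, at 0.61 ± 0.23 (adjusted p = 0.0601), although it passed there without air 6, at 0.84 ± 0.23 (adjusted p = 0.00821). The call over smoke was lost when any of 16 libraries was left out (adjusted p up to 0.109): air 2, 4 and 5, silica 3 and 6, smoke 1 to 6, and combined 2 to 6.

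Nsdhl, Hsd17b7 and Ebp, which demethylate, reduce and isomerise sterol intermediates, differed from air in the combined group by 0.25 ± 0.14, 0.25 ± 0.22 and 0.22 ± 0.21, and did not pass in any comparison. Tm7sf2, another sterol reductase, had 4 to 11 counts in air libraries, 0 to 7 in silica libraries, 2 to 9 in smoke 1 and 3 to 6, and 5 to 19 in combined libraries. That corresponds to 1.496, 1.97 and 3.55 CPM in air, 0, 1.38 and 3.13 in silica, 1.43, 1.85 and 2.98 in smoke, and 3.33, 5.09 and 7.13 in the combined group. The combined libraries lay above all silica and smoke libraries and overlapped the air range at its top. Once smoke 2 was left out it reached the filter on low counts, but through its combined libraries alone, so its values are given with no test and it is left out of the counts of members.

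**Figure D3:**
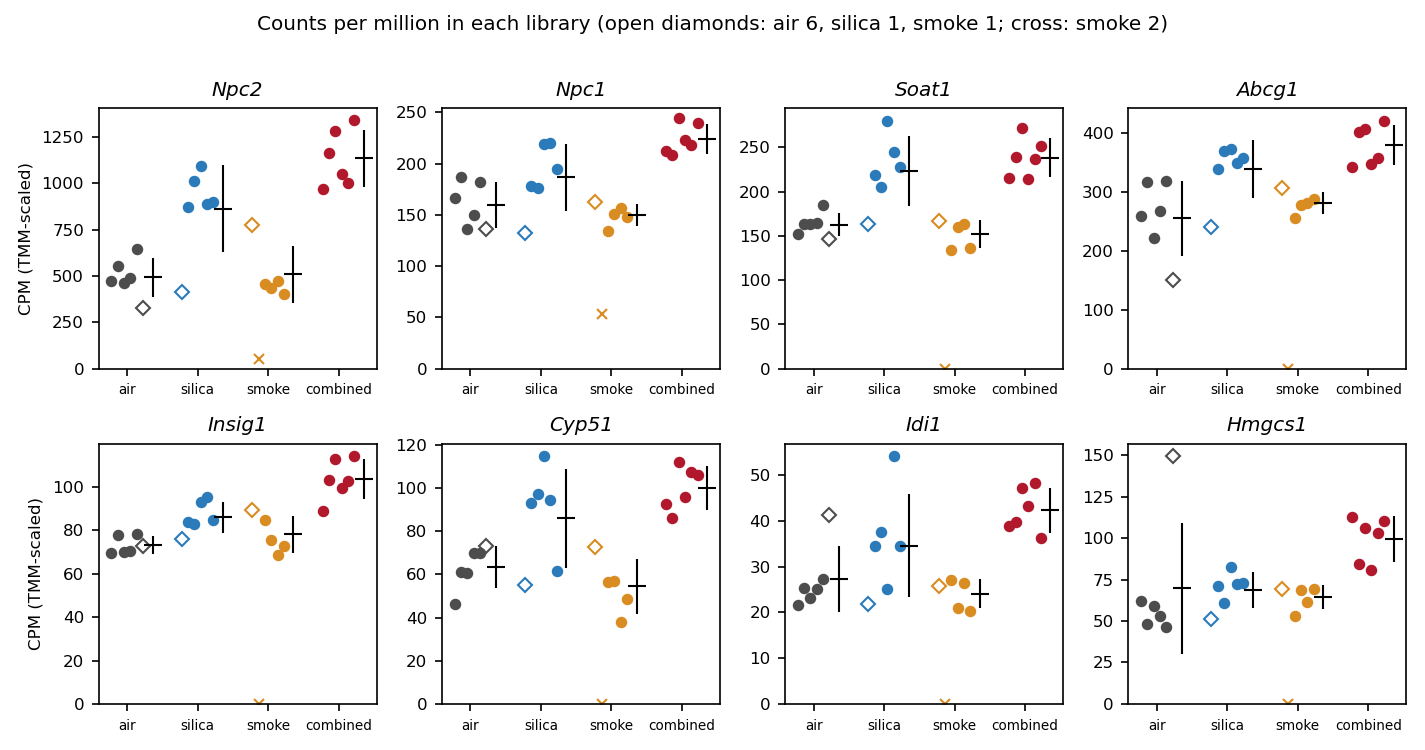
CPM (vertical axes) of selected members in each library of the air, silica, smoke and combined groups, with black bars for the mean ± SD of a group (smoke 2 left out), air 6, silica 1 and smoke 1 as open diamonds and smoke 2 as a cross. The combined libraries of Npc2 sit between 969 and 1340, above all air and smoke libraries, and the highest point of Hmgcs1 is air 6 at 149.

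Of the 5 genes of sterol sensing, 2 rose in the combined group over air and over smoke. Insig1, the endoplasmic reticulum anchor that holds SCAP back and is itself an SREBP target, had 69.4, 71.7 and 78.5 CPM in air, 75.8, 84.2 and 95.2 in silica, 68.5, 75.6 and 89.3 in smoke, and 88.8, 103 and 114 in the combined group. No combined library overlapped an air library, the smoke group reached the lowest combined value with its highest library, and the silica range reached into both. Insig1 rose by 0.50 ± 0.09 over air (1.42-fold, adjusted p = 1.14e-04) and by 0.40 ± 0.09 over smoke (adjusted p = 0.00444). Srebf1, the SREBP gene tied most to fatty acid synthesis and an LXR target, had 90.9, 115 and 122 CPM in air, 85.9, 108 and 122 in silica, 87.8, 108 and 120 in smoke, and 93.9, 142 and 156 in the combined group. Its combined median lay above every library of the other groups, and its lowest combined library lay within their ranges. Srebf1 rose by 0.34 ± 0.12 over air (adjusted p = 0.0341) and by 0.40 ± 0.12 over smoke (adjusted p = 0.0295). The first call was lost without air 3, air 5 or combined 1, 3 or 6 (adjusted p up to 0.0865) and the second without smoke 3, 4 or 5 or combined 1, 3 or 6 (adjusted p up to 0.0776).

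The other sensing genes did not pass in any comparison. Srebf2, the SREBP gene most tied to cholesterol synthesis, had 177, 211 and 264 CPM in air and 222, 228 and 265 in the combined group, a difference of 0.13 ± 0.11 (adjusted p = 0.447). Scap, the escort of the SREBPs, differed by -0.01 ± 0.09, and Insig2, the second anchor, by -0.04 ± 0.11.

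The genes of lysosomal export and storage held the member with the largest difference. Npc2, the soluble lysosomal protein that hands cholesterol to NPC1, had 328, 483 and 644 CPM in air, 416, 892 and 1094 in silica, 403, 459 and 777 in smoke, and 969, 1108 and 1340 in the combined group. Every combined library lay above every air and smoke library. The lowest silica value was the library labelled silica 1, with the next at 871, and the highest smoke value was the library labelled smoke 1, with the next at 474. Npc2 rose 2.31-fold over air in the combined group (log2 1.21 ± 0.19, adjusted p = 5.06e-05) and by 1.19 ± 0.20 over smoke (adjusted p = 5.07e-04).

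Soat1, which esterifies cholesterol for storage in droplets, had 147, 163 and 185 CPM in air, 163, 223 and 280 in silica, 134, 160 and 167 in smoke, and 214, 238 and 272 in the combined group. Npc1, the lysosomal membrane protein that passes cholesterol out, had 136, 158 and 187 CPM in air, 133, 187 and 220 in silica, 134, 151 and 163 in smoke, and 209, 221 and 244 in the combined group. For both genes the combined libraries lay above all air and smoke libraries and shared part of the silica range. Over air in the combined group, Soat1 rose by 0.55 ± 0.10 (adjusted p = 3.51e-04) and Npc1 by 0.50 ± 0.10 (adjusted p = 7.87e-04). Over smoke they rose by 0.66 ± 0.11 (adjusted p = 5.07e-04) and 0.59 ± 0.11 (adjusted p = 0.00104). Stard4, a cytosolic carrier of cholesterol, was at 39.3, 49.3 and 61.3 CPM in air and 43.4, 50.8 and 56.3 in the combined group, and did not pass in any comparison.

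Both efflux pumps rose and their nuclear receptors did not pass. Abcg1, which exports cholesterol to high-density lipoprotein and clears it from macrophages, had 150, 264 and 318 CPM in air, 241, 354 and 373 in silica, 256, 281 and 308 in smoke, and 343, 379 and 421 in the combined group. No combined library overlapped an air or smoke library. Abcg1 rose by 0.58 ± 0.14 over air (adjusted p = 0.00367) and by 0.45 ± 0.15 over smoke (adjusted p = 0.0414), the latter lost without smoke 3, 4, 5 or 6 or combined 2, 3 or 6 (adjusted p up to 0.100). Abca1, which loads cholesterol on lipid-poor apolipoprotein, had 423, 503 and 553 CPM in air, 488, 501 and 513 in silica, 454, 502 and 534 in smoke, and 505, 620 and 709 in the combined group. Its lowest combined library lay within the other groups, and its combined median lay above all of them. Abca1 rose by 0.32 ± 0.10 over air (adjusted p = 0.0207) and by 0.34 ± 0.11 over smoke (adjusted p = 0.0327). The call over air was lost without air 5 or combined 2, 3 or 6 (adjusted p up to 0.0650), and that over smoke without smoke 3, 4 or 5 or combined 2, 3 or 6 (adjusted p up to 0.0918).

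Nr1h3, which encodes LXRα, had 52.9, 60.4 and 63.0 CPM in air and 60.8, 67.6 and 75.5 in the combined group, a difference of 0.21 ± 0.11 that did not pass (adjusted p = 0.173). Nr1h2, which encodes LXRβ, and Mylip, the LXR-driven ligase named above, differed from air by -0.00 ± 0.11 and 0.00 ± 0.11. Neither passed in any comparison.

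**Figure D4:**
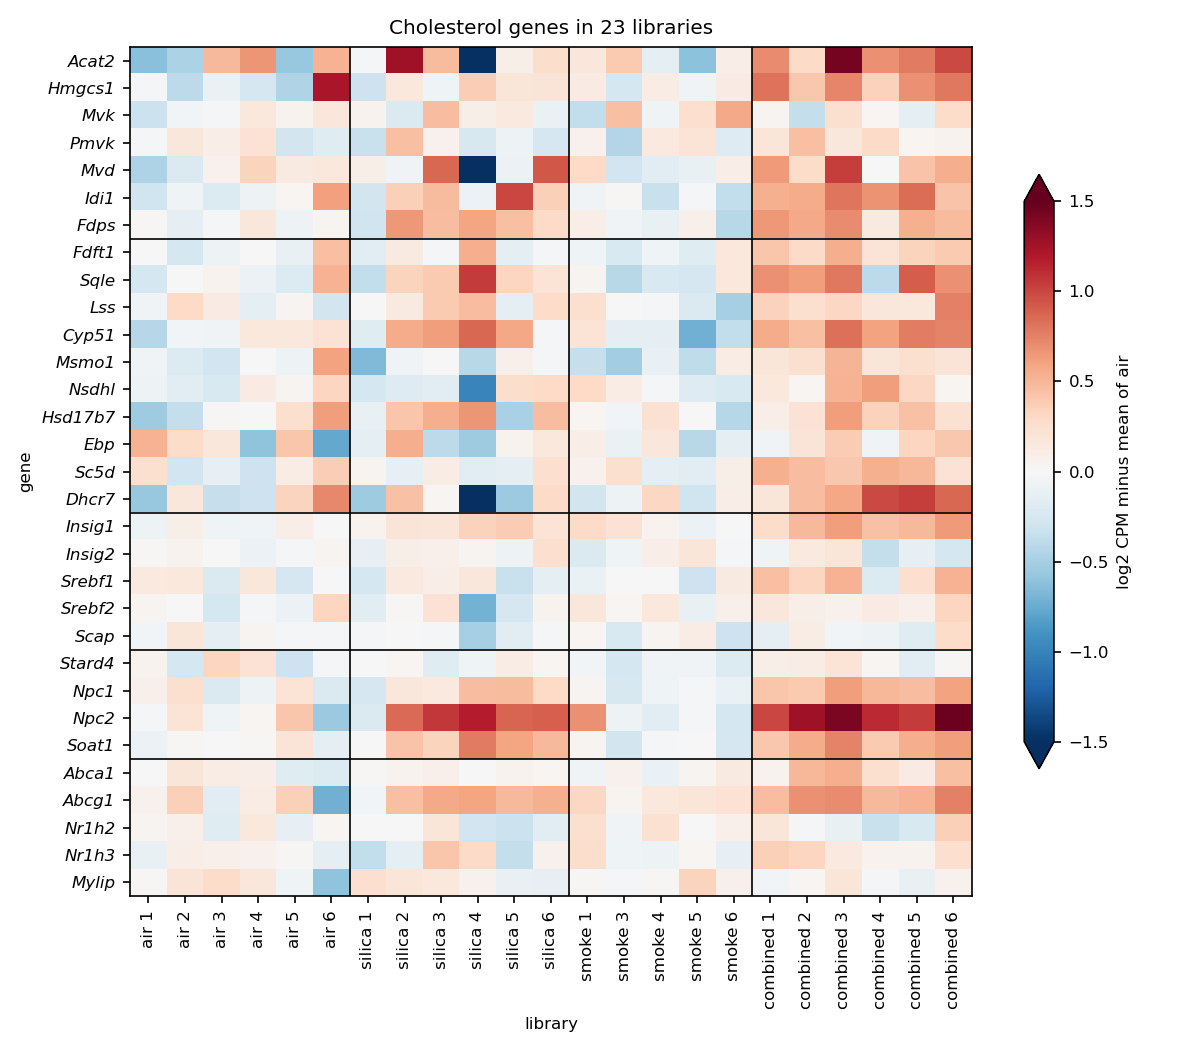
Log2 CPM of each tested member (rows, in order of role) in each library (columns, by group), minus the mean of the gene in air, with smoke 2 left out. At Cyp51, Insig1, Npc1, Npc2, Soat1 and Abcg1 the combined libraries are all above the air libraries, and the library labelled silica 1 is low at Npc2, where it had 416 CPM against 871 or more in the other silica libraries.

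Among the 14 calls over air, 10 held whichever single library was left out: Idi1, Fdps, Sqle, Cyp51, Sc5d, Insig1, Npc1, Npc2, Soat1 and Abcg1. DESeq2 called 10 of the 14, without Fdft1, Lss, Sc5d and Srebf1. Leaving out silica 1, smoke 1 and smoke 2 kept all 14 calls. Leaving out air 6 as well kept 13 of them, without Lss (adjusted p = 0.0750), and added Acat2, Dhcr7, Hmgcs1 and Msmo1.

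The comparison with smoke alone asks what silica adds to smoke. Here 17 of 31 members rose and none fell, where 7.34% of all genes rose and 5.57% fell. The median difference was 0.42 for the members and 0.00 for all genes, and 27 of 31 members lay above 0. The 17 were the 14 that rose over air with Hmgcs1, Msmo1 and Dhcr7 in addition. With smoke 2 left out of the ranges, 10 tested members had every combined library above every smoke library, against 4.99% of all genes: Hmgcs1, Idi1, Fdps, Fdft1, Cyp51, Msmo1, Npc1, Npc2, Soat1 and Abcg1. The reverse held for no member and for 4.28% of all genes. The comparisons with air and with smoke share the combined libraries.

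Of the 17 calls, 9 held whichever single library was left out: Cyp51, Fdft1, Fdps, Idi1, Insig1, Npc1, Npc2, Soat1 and Sqle. The call of Hmgcs1 was lost without smoke 3, 4, 5 or 6 or combined 1, 3, 5 or 6 (adjusted p up to 0.114). The number of these 17 calls that were kept fell to 10 without smoke 3, smoke 4 or combined 3, and to 11 without combined 6. Without smoke 5 the calls of Abca1, Abcg1, Dhcr7, Hmgcs1, Lss, Msmo1, Sc5d and Srebf1 were lost. DESeq2 called 8 of the 17, namely Abca1, Cyp51, Fdps, Idi1, Npc1, Npc2, Soat1 and Sqle. Without silica 1, smoke 1 and smoke 2, 16 of 31 members rose, against 9.9% of all genes, with Dhcr7 out.

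After silica alone, 2 of 31 members rose over air and none fell, where 3.17% of all genes passed, 2.15% higher and 1.01% lower. Both belong to lysosomal export and storage. Npc2 rose by 0.80 ± 0.19 (adjusted p = 0.0215) and Soat1 by 0.43 ± 0.11 (adjusted p = 0.026). No member had all silica libraries above all air libraries, against 0.36% of all genes. With the library labelled silica 1 set aside, the lowest silica value lay above the highest air value at some members. These were Npc2 (871 against 644 CPM), Soat1 (205 against 185), Abcg1 (340 against 318), Fdps (89.8 against 83.3) and Insig1 (83.0 against 78.5). The share of all genes for that case is not given here. The median difference of the members was 0.05, that of all genes -0.00, and 18 of 31 members lay above 0. At an unadjusted p under 0.05 there were 7 members higher and none lower, where 9.31% of all genes were higher and 8.91% lower, and the other 5 were Fdps at 0.36 ± 0.12, Abcg1 at 0.40 ± 0.14, Insig1 at 0.22 ± 0.09, Cyp51 at 0.36 ± 0.15 and Idi1 at 0.38 ± 0.17.

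The silica calls depended on single libraries. Npc2 lost its call without silica 3, silica 5 or silica 6 (adjusted p up to 0.0589), and Soat1 without air 1 or silica 2, 5 or 6 (adjusted p up to 0.0971). Soat1 was not called by DESeq2 (adjusted p = 0.0606), and neither gene was called with the air and silica libraries fitted alone (adjusted p = 0.0524 and 0.0574). Leaving out the library labelled silica 1 together with smoke 1 and smoke 2 had the reverse effect, on all genes as well as on the members. Without silica 1, smoke 1 and smoke 2, 8 of 31 members rose over air, against 5.96% of all genes: Npc2 by 0.93 ± 0.12, Soat1 by 0.49 ± 0.08, Idi1 by 0.49 ± 0.16, Abcg1 by 0.48 ± 0.12, Fdps by 0.46 ± 0.10, Cyp51 by 0.45 ± 0.13, Npc1 by 0.29 ± 0.09 and Insig1 by 0.25 ± 0.08. The largest adjusted p among the 8 was 0.0452, for Idi1.

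After smoke alone no member passed the test in either direction with edgeR, DESeq2 or limma voom with quality weights, and 0.15% of all genes passed with edgeR, 0.0976% higher and 0.0525% lower. No member had an unadjusted p under 0.05 with edgeR either, where 4.13% of all genes were higher and 4.17% lower. The differences ran from -0.31 for Msmo1 to 0.16 for Mvk, with a median of -0.06 and 23 of 31 members below 0. The median of all genes was -0.01. Without silica 1, smoke 1 and smoke 2 no member passed either (lowest adjusted p = 0.460, edgeR). The median of the members, Tm7sf2 included, was then -0.11. Without air 6 as well none passed (lowest adjusted p = 0.354, edgeR), and that median was -0.06. Npc2 differed from air by 0.01 ± 0.20 with all libraries. In smoke 3 to 6 the gene was between 403 and 474 CPM, inside the air range, and the library labelled smoke 1 stood at 777.

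Against silica alone, the comparison that asks what smoke adds to silica, no member passed the test with edgeR or DESeq2, where 0.248% of all genes passed in either direction. Limma voom with quality weights called Fdft1 and Hmgcs1. At an unadjusted p under 0.05, 12 of 31 members were higher and none lower, where 6.79% of all genes were higher and 6.07% lower. The median was 0.25 for the members and -0.00 for all genes, and 28 of 31 members lay above 0. The largest difference was that of Dhcr7, at 0.82 ± 0.26 (adjusted p = 0.166), and the lowest adjusted p was 0.126, for Sc5d at 0.44 ± 0.13 and for Srebf1 at 0.42 ± 0.12. Npc2 differed by 0.41 ± 0.19 and Soat1 by 0.13 ± 0.11. Msmo1 was the only tested member whose combined libraries all lay above all silica libraries, against 0.743% of all genes. Without air 6, which enters this comparison through the shared estimate of the spread, Hmgcs1 and Fdft1 passed as given above.

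The interaction asks whether the combined group departs from the sum of the separate effects of silica and smoke on the log2 scale. No member passed the test with edgeR, DESeq2 or voom, and with edgeR 0% of all genes did. The lowest adjusted p of a member was 0.420. The interaction lay above 0 for 27 of 31 members and for 51.5% of all genes, with medians of 0.30 and 0.01. At an unadjusted p under 0.05, 10 members were above 0 and none below, where 3.9% of all genes were above and 3.43% below. These 10 included 6 of the 10 tested genes between squalene and cholesterol: Msmo1 at 0.70 ± 0.22, Fdft1 at 0.51 ± 0.16, Dhcr7 at 0.97 ± 0.37, Sqle at 0.59 ± 0.25, Cyp51 at 0.49 ± 0.21 and Sc5d at 0.44 ± 0.18. The others were Hmgcs1 at 0.75 ± 0.30, Srebf1 at 0.48 ± 0.17, Npc1 at 0.38 ± 0.15 and Abca1 at 0.30 ± 0.15.

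Npc2, with the largest difference from air, had an interaction of 0.39 ± 0.27, and Insig1 one of 0.18 ± 0.13. Abcg1 stood at 0.05 ± 0.21, Insig2 at -0.07 ± 0.16, Mylip at -0.12 ± 0.16 and Mvk at -0.22 ± 0.26. Without silica 1, smoke 1 and smoke 2 the interaction was above 0 for 27 of 31 members and 51.2% of all genes. An unadjusted p under 0.05 then went with 9 members above 0 and none below, where 4.46% of all genes were above and 4.35% below. Without air 6 as well it was above 0 for 29 of 31 members and 50.6% of all genes, with 7 members above and none below at an unadjusted p under 0.05, where 5.56% of all genes were above and 5.29% below. No member passed the adjusted test in either case.

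**Figure D5:**
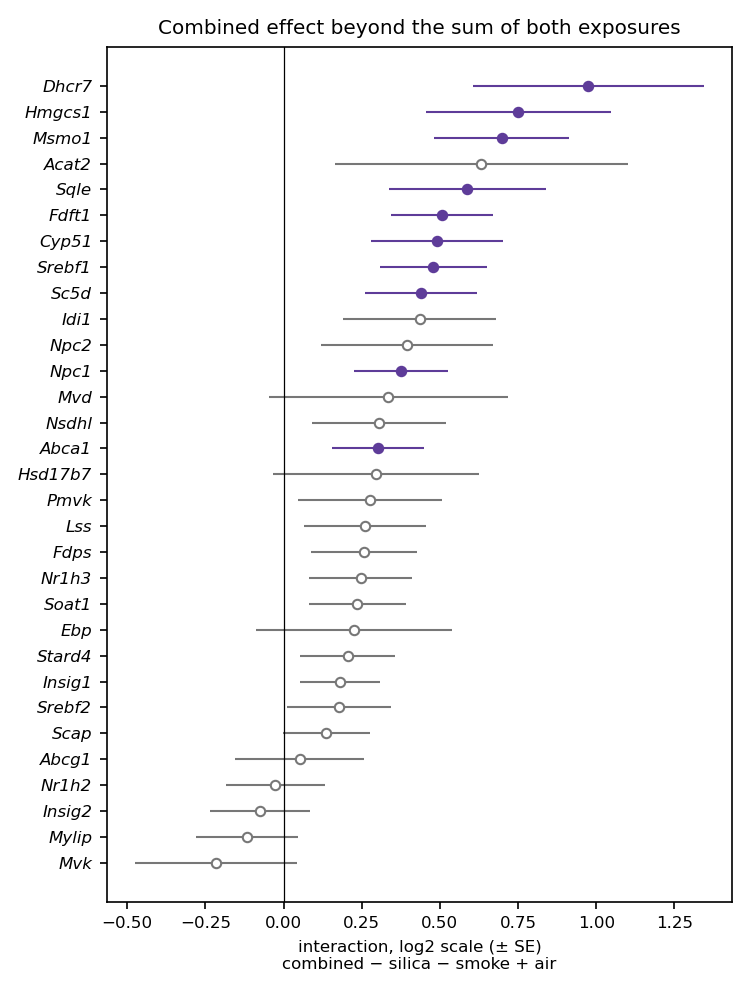
Interaction of silica and smoke on the log2 scale (horizontal axis, combined minus silica minus smoke plus air, with bars of ± 1 standard error) for the 31 tested members in order of size, with filled points for an unadjusted p under 0.05. The 10 filled points all lie above 0, and 4 members lie below 0.

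A list of 45 other genes of cholesterol uptake, hydrolysis, transport, oxidation and regulation had 42 tested genes, of which 7 rose and 5 fell in the combined group over air, or 16.7% and 11.9%, where 11.6% of all genes rose and 10.8% fell. Over smoke 3 rose and 3 fell, or 7.14% each way, where 7.34% of all genes rose and 5.57% fell, and none passed in the other comparisons. With all libraries these shares were near those of all genes. Its median over air was 0.05. Lrp8, a lipoprotein receptor, had 7.36, 10.1 and 13.1 CPM in air and 16.9, 22.8 and 27.7 in the combined group, without overlap, and rose by 1.08. Nceh1, which hydrolyses cholesteryl esters in macrophages, rose by 0.83, the sterol carrier Stard5 by 0.76 and Lpcat3, an LXR-driven enzyme of phospholipid remodelling, by 0.67. The 4 calls over air held whichever library was left out, with adjusted p up to 0.0116. The other genes that rose were Lipa, Cd36 and Scarb2, and those that fell included Vldlr, Faxdc2, Lbr and Osbpl5. Of these, Cd36 was lost without air 6 or combined 5 or 6 (adjusted p up to 0.0779), and Scarb2 without air 1 to 4 or combined 2 to 5 (up to 0.0673). Over smoke, Lrp8 rose by 0.85 and Lpcat3 by 0.69, while Faxdc2 fell by 0.52, each in every omission. Aacs, which activates acetoacetate for sterol synthesis, rose by 0.47 and lost its call without smoke 3 to 6 or combined 1, 2, 3, 5 or 6 (adjusted p up to 0.138). Osbpl5 and Vldlr also fell over smoke and lost their calls without any of smoke 3, 4 and 6 and, for Vldlr, of smoke 5 and combined 2, 3, 4 and 6 as well (adjusted p up to 0.137). Without silica 1, smoke 1 and smoke 2, 8 of the 42 rose and 7 fell over air in the combined group, 8 rose and 4 fell over smoke, and 4 rose and 2 fell after silica alone. The shares of all genes that rose and fell there were 12.1% and 13.5% over air, 9.9% and 10.2% over smoke, and 5.96% and 5.85% after silica. The endocytic receptor Lrp1 and the corepressor Ncor1 differed from air in the combined group by 0.15 ± 0.16 (adjusted p = 0.539) and -0.08 ± 0.10 (adjusted p = 0.647).

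Markers of several cell types also passed the test, some higher and some lower. The shares of all genes in the combined group over air were 11.6% higher and 10.8% lower. In the combined group over air, 5 of 9 tested macrophage markers rose, 5 of 6 of monocytes and neutrophils rose, and 6 of 12 of alveolar type 2 cells rose, while 5 of 6 endothelial, 4 of 6 alveolar type 1 and 3 of 5 fibroblast markers fell. Without air 6, 1 of 5 fibroblast markers fell, and the fibroblast list summed to 5776 CPM in air 6 against 1161 to 1450 in the other air libraries. The summed level of the macrophage list was 701 to 1054 CPM in air, 797 to 1373 in silica, 780 to 1228 in smoke and 1483 to 1699 in the combined group, with the library labelled silica 1 the lowest of its group and that labelled smoke 1 the highest of its own. The widest gap between means in that list was that of Chi3l1, at 127.8 CPM in air and 600.5 in the combined group. Of its 9 tested markers 4 did not pass, and Csf1r had means of 225 and 232 CPM, Mertk 50.9 and 50.6, and Pparg 23.1 and 22.1. The alveolar type 2 list summed to 25870 to 46620 CPM in air, 30150 to 63150 in silica, 34210 to 49740 in smoke and 59030 to 70940 in the combined group. Most of that gap lay in Lyz2, a lysozyme gene that macrophages also express, with a mean of 15770 CPM in air and 33160 in the combined group, and in the surfactant protein gene Sftpa1, with 5934 and 13540. Sftpc and Sftpb, which encode surfactant proteins C and B, differed from air by 0.19 (adjusted p = 0.680) and 0.05 (adjusted p = 0.902). The alveolar type 2 list also holds Fasn and Scd, which act in fatty acid synthesis and are not specific to that cell type. Fasn had a mean of 1347 CPM in air and 2282 in the combined group, and Scd 1178 and 1286. The monocyte and neutrophil list summed to 110 to 169 CPM in air, 143 to 705 in silica, 164 to 535 in smoke and 425 to 873 in the combined group. Its widest gap between means was that of S100a9, at 48.2 CPM in air and 491 in the combined group. The endothelial list summed to 3426 to 4234 CPM in air, 2727 to 4232 in silica, 3306 to 4067 in smoke and 2421 to 2778 in the combined group. After silica alone 4 of 9 macrophage, 4 of 6 monocyte and neutrophil and 1 of 12 alveolar type 2 markers rose, where 2.15% of all genes rose. After smoke alone none of these markers rose, where only 0.0976% of all genes did. The macrophage markers Ear1 and Marco had no more than 1 and 2 counts in any library and were not tested. Of the remaining lists in the combined group over air, 1 of 5 club cell markers fell, 1 of 2 tested lipid storage markers rose (Plin2, which coats lipid droplets, by 0.64), and no erythroid or lymphocyte marker passed. The part of these cell types in the differences of Npc2, Soat1, Npc1, Abcg1 and the synthesis genes was not tested.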

How the data were processed

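The values are raw read counts per gene, as the authors deposited them in 1 table with a column for each library. The submitters' processing notes name HTSeq 0.11.2, HISAT2 2.1.0, SAMtools 1.8, Trimmomatic 0.35, bcl2fastq 2.19 and Cufflinks. No source used here gives the genome build, the annotation or the strand setting of the counting, so reads of overlapping and antisense genes may be mixed. Per the labels' protocols, the total RNA was depleted of ribosomal RNA and a stranded kit was used. Of 30069 lines, 26 repeated another line and were removed.

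Counts were tested in R 4.3.3 with edgeR 4.0.16 (TMM scaling, filterByExpr with a minimum count of 10, glmQLFit and glmQLFTest), in 1 fit of all 24 libraries over the 4 groups, two-sided, with Benjamini-Hochberg adjustment over all 13322 tested genes. Alternatives were RLE scaling, no filter on low counts, DESeq2 1.42.0, limma 3.58.1 voom with quality weights, only the libraries of the groups compared, each library left out in turn, and both sets of libraries that stood apart left out. Replicate numbers follow the order of deposit and pair nothing. The members and lists were chosen with earlier results of these data known, and lists are described by counts and medians. Every member is named. Values of other pathway genes are given for the 4 called with the largest difference and the 2 most abundant not called in a comparison. 1 other pathway gene is counted in its list and not reported here by name. Depth limits precision: 3 counts stand at 1.28 CPM at the median total of 2335358 counts, which covers counting error only.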

Additional observations from a re-analysis of the deposited data

Results flagged for a closer look

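In 13 of 124 sets of values (a member in a group, smoke 2 left out) the highest or lowest library stood farther from the rest than Dixon's criterion allows, which chance does in about 1 in 20. Air 6 was the highest air library by such a gap at Hmgcs1 (149 CPM, the next at 62.0), Idi1 (41.4, the next at 27.3), Fdft1 (77.0, the next at 56.2), Sqle (39.5, the next at 28.3) and Msmo1 (51.8, the next at 33.9). Other roles went the other way in air 6. By mean log2 CPM of a role, centred on all libraries, it was the highest air library in the mevalonate pathway (0.38) and squalene steps (0.39). It was the lowest in movement and storage (-0.26) and in efflux and its regulators (-0.23). The library labelled silica 1 was the lowest silica library at Npc2 (416 CPM, the next at 871) and Abcg1 (241, the next at 340). The library labelled smoke 1 was the highest smoke library at Npc2 (777 CPM, the next at 474). Single values stood apart for Fdft1 in silica 4 (82.5 CPM, the next at 61.7), Sqle in combined 4 (20.7, the lowest, the next at 42.7), Lss in combined 6 (48.6, the next at 36.3), Msmo1 in combined 3 (48.4, the next at 40.2) and Mylip in smoke 5 (91.3, the next at 75.9).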

How the results depend on the processing

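No called member reversed its direction under any alternative, and no member was called lower in any of them. Members higher after silica numbered 1 with DESeq2 (Npc2), 4 with voom (Fdps, Idi1, Npc2 and Soat1), 0 with the air and silica libraries alone, 8 without silica 1, smoke 1 and smoke 2, and 10 without air 6 as well. Members higher in the combined group over silica numbered 2 with voom, 1 with those groups alone (Hmgcs1) and 2 without the 4 libraries (Hmgcs1, and Tm7sf2, which passed the filter there through the combined group alone and so supports nothing). Over smoke, DESeq2 called 8 where edgeR called 17. RLE scaling ended the calls of Lss over air and of Lss and Dhcr7 over smoke, and no filter on low counts those and Abca1 over smoke. Leaving out 1 library at a time gave 0 to 7 members higher after silica, 10 to 17 in the combined group over air, 10 to 18 over smoke, 0 to 2 over silica, and 0 after smoke and for the interaction. Over all genes, the counts of higher and lower calls for silica were 287 and 135 with edgeR, 148 and 41 with DESeq2, 577 and 332 with voom, 80 and 11 with those groups alone, and 815 and 799 without the 3 libraries. In the combined group over air they were 1546 and 1441 with edgeR and 856 and 809 with DESeq2, and over smoke 978 and 742 against 445 and 351. Depth limits the low members Acat2, Mvd, Dhcr7 and Tm7sf2, each with no count in silica 4. The cause of these differences was not tested. No paired analysis was possible because the labels give no replicate numbers shared by the groups.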
